A study of Mus musculus with 6 samples.

Results

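Genes of the ligand, receptors, SMAD proteins and SKI corepressors that carry or restrain the transforming growth factor beta (TGF-β) signal were followed in mouse splenic cells labelled as γδ T cells. The 9 genes were chosen by name, with earlier results of these data known: Tgfb1, Tgfbr1, Tgfbr2, Smad2, Smad3, Smad4, Smad7, Ski and Skil. Each had 1 row in the deposited tables, which list 52550 genes, and all 9 passed the filter on low values (10 normalized counts or more in 3 or more of 6 libraries), as 17185 genes did. RNA came from C57BL/6 spleen cells of 2 groups, named DON (n = 3 libraries) and Control (n = 3 libraries). The DON group received IL-23, IL-1β and DON, a compound that the labels do not spell out and give without a dose. The Control group received the same pair of cytokines, known inducers of interleukin 17 in T cells, without DON. All cells spent 3 days under stimulation by plate-bound anti-CD3 and anti-CD28 antibodies. Whether replicate libraries are independent mice, cultures or repeat preparations is not stated, so the p-values speak only to the variation among these 6 libraries, part or all of which could be technical.

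In the canonical pathway TGF-β binds the type II receptor TGFBR2, which recruits and phosphorylates the type I receptor TGFBR1. TGFBR1 phosphorylates SMAD2 and SMAD3, and these enter the nucleus with SMAD4 to regulate transcription. SMAD7 blocks the receptor and is induced by the pathway itself, while SKI and SnoN (the product of Skil) bind SMAD complexes and repress their targets. In T cells the pathway restrains activation, and together with inflammatory cytokines it takes part in the differentiation of cells that produce interleukin 17.

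Recovered totals, the counts obtained by dividing each library's values by their common step, were 35717703 to 40840099 units in DON libraries and 33715873 to 37888926 in Control libraries. Of 17185 genes tested, 395 rose and 713 fell in DON (limma, Benjamini-Hochberg adjusted p under 0.05). The γδ receptor gene Trdc had 4278 to 4552 normalized counts in DON libraries and 4428 to 4700 in Control libraries. The αβ receptor gene Trac had 11064 to 12715 normalized counts in DON libraries and 10746 to 10968 in Control libraries, so transcripts of αβ T cells were abundant in all 6 libraries beside those of γδ T cells. Of the 7 markers listed for γδ T cells, 3 are CD3 chains of all T cells, and these make up most of the sum (42068 to 47854 normalized counts in DON libraries and 38835 to 39014 in Control libraries). The 1 of 7 that rose was Cd3d, such a chain. None of the 4 γδ receptor genes passed the test in limma: Trdc had a log2 difference of -0.04, Tcrg-C1 of -0.37, Tcrg-C2 of -0.47 and Tcrg-C4 of -0.62 (limma adjusted p = 0.0652 for Tcrg-C4, whose groups did not overlap, and 0.184 to 0.749 for the other 3). The 6 αβ T cell markers summed to 70718 to 80388 in DON libraries and 68301 to 72043 in Control libraries, with 0 of 6 called in limma. Genes with a low GC content separated the libraries in another way. In the lowest of 3 equal groups of genes by transcript GC content, the median log2 deviation from the mean of all libraries was 0.10, -0.15 and -0.17 in DON libraries 1 to 3 and 0.07, 0.14 and 0.11 in Control libraries 1 to 3.

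None of the 9 genes passed the limma test with all 6 libraries, and the estimated difference was below 0.5 in size on the log2 scale for 9 of 9, as for 76.1% of all genes tested. In limma 0 of 9 passed at an adjusted p of 0.05, against 6.45% of all genes tested, and 0 of 9 passed in edgeR (5.81% of all genes) and in DESeq2 (13.2%). At an unadjusted p of 0.05, 3 of 9 passed in limma, against 25.5% of all genes, and 3 of 9 passed in edgeR, against 24.3%. In DESeq2 2 of 9 had an unadjusted p under 0.05, against 24.4% of all genes. The median difference, DON minus Control, was 0.0046 on the log2 scale over the 9 genes and 0.00032 over all genes tested. The median absolute difference was 0.18 over the 9 genes and 0.23 over all genes tested. The DON libraries all lay on one side of the Control libraries for Tgfb1, Smad3 and Skil, 3 of 9 genes, against 31.4% of all genes tested. DON was the higher group for 1 of these and the lower for 2, against 15.7% of all genes in each direction. These shares lie near those of all genes.

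**Figure D1:**
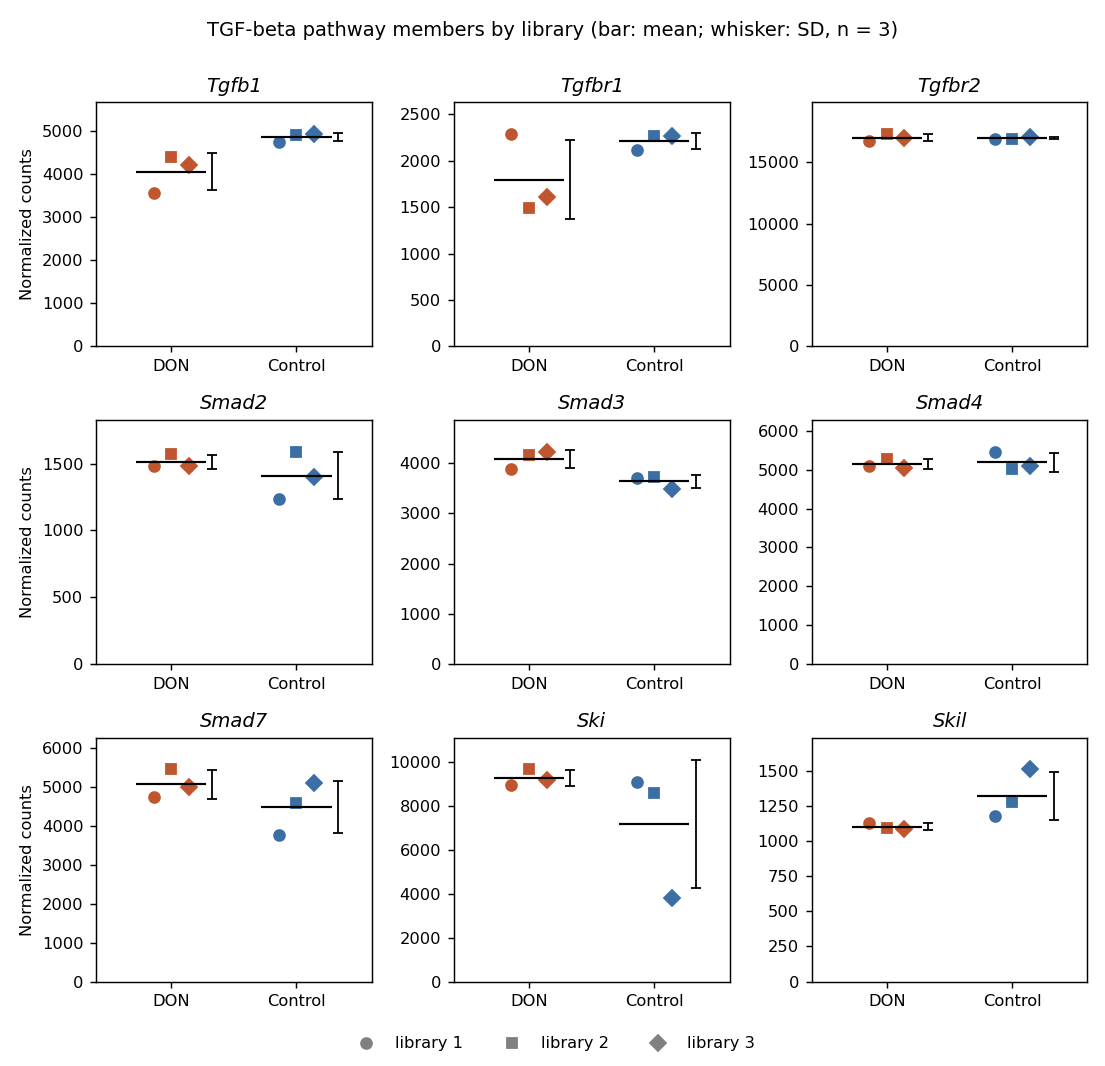
Normalized counts of the 9 genes in each library, with DON left of Control, every axis starting at 0, the mean as a bar and the SD (n = 3) as a whisker. Tgfbr2 stood between 16727 and 17272 in all 6 libraries, Tgfb1 was at or below 4390 in each DON library and at or above 4743 in each Control library, and Ski stood apart at 3812 in Control library 3.

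Tgfb1 encodes TGF-β1, the ligand that predominates in the immune system (ENSMUSG00000002603.15, chromosome 7, 25687002 to 25705077 in the files' coordinates, plus strand). It had 3568, 4390 and 4203 normalized counts in DON libraries 1 to 3, against 4743, 4905 and 4923 in Control libraries 1 to 3. The groups did not overlap, and DON library 1 was the lowest. The mean was 4054 ± 431 in DON and 4857 ± 99.2 in Control (SD, n = 3 each), a ratio of 0.835. The log2 difference was -0.27 (SE 0.09, 95% interval -0.47 to -0.06, limma adjusted p = 0.11), so the call was not reached over all genes.

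The call for Tgfb1 changed with the treatment of GC content and with the DON libraries used. After each library's trend with transcript GC content was removed, the log2 difference was -0.35 (limma adjusted p = 0.0241), which passed the threshold, where 4.82% of all genes were called lower. It was -0.44 (limma adjusted p = 0.0461) without DON libraries 2 and 3, where 1.73% of genes were called lower. That fit takes the spread of the Control libraries for its only DON library. Without DON library 1, where the gene was lowest, it was -0.18 (limma adjusted p = 0.0695). Over its 17 alternatives the adjusted p ranged from 0.0241 to 0.256.

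Transcripts of other cells that make or store TGF-β1 moved in different directions in the same libraries. The 8 macrophage markers summed to 11347 to 12357 normalized counts in DON libraries and 9053 to 9202 in Control libraries, and 4 of 8 rose. The 7 platelet and megakaryocyte markers summed to 320 to 427 in DON libraries and 459 to 587 in Control libraries, 1 of the 5 tested fell, and Gp6, a platelet collagen receptor, was at or below 4.1 in every library. Of the 5 regulatory T cell markers 2 fell, Ctla4 and Il2ra, which activated T cells also express. The 5 markers together summed to 6992 to 7559 in DON libraries and 13463 to 13528 in Control libraries, a gap carried mostly by Il2ra (2993 ± 198 in DON and 7806 ± 305 in Control). Foxp3, the defining marker, averaged 931 ± 139 in DON and 957 ± 13.7 in Control and did not pass the test. The part of these cells in the Tgfb1 values was not tested, and in bulk RNA fewer cells of a type and less RNA per cell cannot be told apart.

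Among 10632 other genes with a mean of at least 100 normalized counts, clone-type symbols left out, the profile nearest to that of Tgfb1 over the 6 libraries belonged to Lrrc32. Lrrc32 encodes GARP, a membrane protein that holds latent TGF-β at the surface of regulatory T cells and platelets. The Euclidean distance between their mean-centred log2 profiles was 0.043, where the median gene lay 0.578 away. Lrrc32 was picked as the smallest of all these distances over only 6 libraries, so a small value follows from the search. A link between Lrrc32 and Tgfb1 was not tested. Lrrc32 had 329, 412 and 383 normalized counts in DON libraries 1 to 3, against 435, 443 and 448 in Control libraries 1 to 3. Its groups did not overlap and its log2 difference was -0.24 (limma adjusted p = 0.263). The next nearest were Ddr1, a collagen receptor (distance 0.067), Rpl15, a ribosomal protein (0.097), Sema4a, a semaphorin (0.099), and H2-Ab1, a class II antigen presentation chain (0.10).

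The receptor genes differed in their spread. Tgfbr2, the type II receptor (ENSMUSG00000032440.13, chromosome 9, 116084293 to 116175360, minus strand), had 16727, 17272 and 16964 normalized counts in DON libraries 1 to 3, against 16878, 16897 and 17022 in Control libraries 1 to 3. The groups overlapped, and all 6 libraries stood within a narrow band. The mean was 16988 ± 274 in DON and 16932 ± 78.4 in Control, and the 95% interval of the log2 difference ran from -0.11 to 0.12 (limma adjusted p = 0.966), which is 0.929-fold to 1.08-fold.

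Tgfbr1, the type I receptor and kinase (ENSMUSG00000007613.15, chromosome 4, 47353222 to 47414931, plus strand), had 2288, 1496 and 1611 normalized counts in DON libraries 1 to 3. In Control libraries 1 to 3 it had 2119, 2264 and 2264. DON libraries 2 and 3 were low, whereas DON library 1 was the highest of all 6. The log2 difference was -0.33 (SE 0.15, 95% interval -0.68 to 0.03, limma adjusted p = 0.228). Its longest transcript has 41.0% GC. Tgfbr1 deviated by -0.40 and -0.30 in DON libraries 2 and 3, where the median of the lowest GC group was -0.15 and -0.17. In DON library 1 and the Control libraries both stood above 0. That GC trend thus partly follows the groups, so removing it may also remove a difference between DON and Control. The part of GC content in the Tgfbr1 values was not tested. After the GC correction the difference was -0.06 (limma adjusted p = 0.704). It was -0.51 without DON library 1 (limma adjusted p = 0.00436, with 12.3% of all genes called lower in that fit) and 0.05 without DON libraries 2 and 3 (limma adjusted p = 0.852).

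Relative to Tgfbr2 in the same library, Tgfbr1 stood at a log2 ratio of -2.87, -3.53 and -3.40 in DON libraries 1 to 3 and -2.99, -2.90 and -2.91 in Control libraries 1 to 3. The mean log2 ratio was -3.27 ± 0.35 in DON and -2.93 ± 0.05 in Control (SD, n = 3 each). The groups overlapped, with a difference of -0.33 (exact permutation test, two-sided, p = 0.4 and 0.8 after Benjamini-Hochberg adjustment over 4 ratios; the smallest p that 3 libraries against 3 allow is 0.1). These ratios are not corrected for gene length and were compared between groups only.

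**Figure D2:**
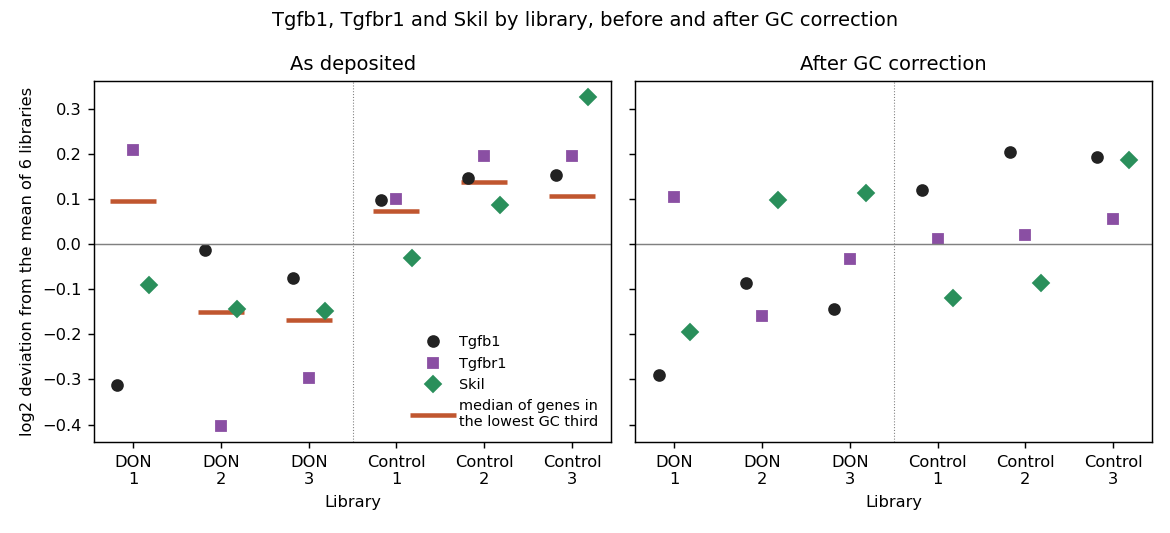
Deviation of Tgfb1, Tgfbr1 and Skil from their mean over the 6 libraries on the log2 scale, as deposited (left) and after GC correction (right), with DON libraries left of Control libraries; horizontal marks are the median of the lowest of 3 equal groups of genes by GC content. Before correction Tgfbr1 stood at -0.40 and -0.30 in DON libraries 2 and 3, where that median was -0.15 and -0.17. Both before and after correction, Tgfb1 was below 0 in each DON library and above 0 in each Control library.

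The receptor-activated SMAD genes were slightly higher on average in DON, without passing the test. Smad3 (ENSMUSG00000032402.12, chromosome 9, 63646767 to 63757994, minus strand), whose product binds DNA directly, had 3889, 4152 and 4225 normalized counts in DON libraries 1 to 3. In Control libraries 1 to 3 it had 3711, 3713 and 3476. Every DON library lay above every Control library. The mean was 4088 ± 177 in DON and 3634 ± 136 in Control, a ratio of 1.13. The log2 difference was 0.17 (SE 0.07, 95% interval 0.01 to 0.33, limma adjusted p = 0.169), and 0.09 after the GC correction (limma adjusted p = 0.378).

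Smad2, whose main product lacks direct DNA binding (ENSMUSG00000024563.15, chromosome 18, 76241580 to 76305731, plus strand), had 1486, 1576 and 1484 normalized counts in DON libraries 1 to 3, against 1238, 1589 and 1399 in Control libraries 1 to 3. The groups overlapped because Control library 2 was the highest of all. The log2 difference was 0.11 (95% interval -0.13 to 0.36, limma adjusted p = 0.545), and it was 0.023 without Control library 1 and 0.20 without Control library 2. The log2 ratio of Smad2 to Smad3 averaged -1.43 ± 0.07 in DON and -1.37 ± 0.19 in Control (exact permutation p = 0.7, two-sided, 0.8 adjusted over 4 ratios).

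Smad4, the partner shared by TGF-β and bone morphogenetic protein signals (ENSMUSG00000024515.13, chromosome 18, 73639009 to 73703780, minus strand), had 5094, 5286 and 5035 normalized counts in DON libraries 1 to 3, against 5462, 5009 and 5106 in Control libraries 1 to 3. The groups overlapped, and the 95% interval of the log2 difference ran from -0.16 to 0.13 (limma adjusted p = 0.913), which is 0.894-fold to 1.10-fold.

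Among the genes of feedback inhibition, Smad7 is a direct target of the pathway (ENSMUSG00000025880.11, chromosome 18, 75367529 to 75395935, plus strand). It had 4729, 5451 and 5008 normalized counts in DON libraries 1 to 3, against 3764, 4584 and 5106 in Control libraries 1 to 3. Control libraries 1 and 2 were the lowest and Control library 3 overlapped DON. The mean was 5063 ± 364 in DON and 4484 ± 677 in Control, and the log2 difference was 0.18 (SE 0.12, 95% interval -0.09 to 0.45, limma adjusted p = 0.361). It was 0.063 without Control library 1 (limma adjusted p = 0.737) and 0.28 without Control library 3 (limma adjusted p = 0.239). Set against the sum of Smad2 and Smad3 in the same library, Smad7 had a mean log2 ratio of -0.15 ± 0.07 in DON and -0.18 ± 0.23 in Control (exact permutation p = 0.8, two-sided, 0.8 adjusted over 4 ratios).

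Ski, the founding SKI corepressor (ENSMUSG00000029050.15, chromosome 4, 155154075 to 155222592, minus strand), had 8920, 9651 and 9187 normalized counts in DON libraries 1 to 3. In Control libraries 1 to 3 it had 9062, 8591 and 3812. A single library, Control 3, stood apart from the other 5. The mean was 9253 ± 370 in DON and 7155 ± 2905 in Control, and the log2 difference was 0.47 (SE 0.30, 95% interval -0.21 to 1.16, limma adjusted p = 0.357). Without Control library 3 the log2 difference was 0.07 (limma adjusted p = 0.65). Such isolated values were not limited to Ski or to that library. Of 6488 genes with a median of at least 1000 normalized counts, 21 had 1 library at least 2-fold away from the median of the other 5 while those 5 stayed within 1.25-fold of each other, with 2 to 6 such genes per library. Ski was the only one of the 9 genes here among them. No exon of Ski overlapped an exon of another gene in GENCODE release M21. The cause of the low Ski value in Control library 3 was not tested.

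Skil, which encodes SnoN (ENSMUSG00000027660.16, chromosome 3, 31095058 to 31122577, plus strand), had 1132, 1091 and 1088 normalized counts in DON libraries 1 to 3. In Control libraries 1 to 3 it had 1180, 1281 and 1512. The groups did not overlap, and Control library 3 was the highest. The mean was 1104 ± 24.8 in DON and 1324 ± 170 in Control, a ratio of 0.834. The log2 difference was -0.25 (SE 0.11, 95% interval -0.50 to -0.0061, limma adjusted p = 0.187), and it was 0.012 after the GC correction (limma adjusted p = 0.968); the longest Skil transcript has 41.0% GC. Without Control library 3 it was -0.155 (limma adjusted p = 0.43). The log2 ratio of Ski to Skil was 2.98, 3.15 and 3.08 in DON libraries 1 to 3 and 2.94, 2.75 and 1.33 in Control libraries 1 to 3. The groups did not overlap (difference 0.73, exact permutation p = 0.1, two-sided, the smallest possible, 0.4 adjusted over 4 ratios), and the difference was 0.22 without Control library 3. This ratio was not corrected for GC content, although the longest Ski transcript has 55.6% GC, against 41.0% for Skil.

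**Figure D3:**
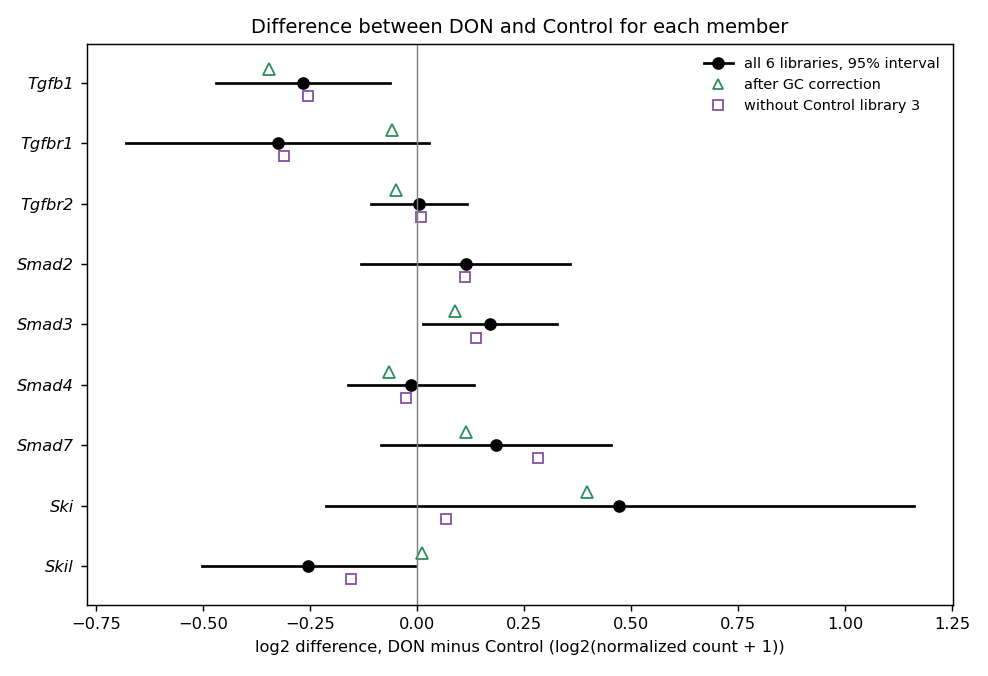
Log2 difference, DON minus Control, of each gene with its 95% interval (filled circles, all 6 libraries), after GC correction (triangles, none for Smad2) and without Control library 3 (squares). Ski moved from 0.47 to 0.07 without that library, Tgfbr1 and Skil moved to -0.06 and 0.012 after GC correction, and Tgfb1 moved to -0.35.

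Expressed per kilobase of merged exons, Tgfbr2 was the most abundant of the 8 genes with a transcript model used here, at 2075 ± 33.4 normalized counts per kilobase in DON and 2068 ± 9.58 in Control. In DON, Ski (1664 ± 66.5), Smad4 (1384 ± 35.3) and Smad7 (1120 ± 80.5) followed, in the same unit. In Control, Smad4 (1399 ± 64.2) stood before Ski (1286 ± 522) and Smad7 (992 ± 150), and the SD of Ski spans the difference. Tgfb1 had 804 ± 85.5 normalized counts per kilobase in DON and 963 ± 19.7 in Control. Smad3 had 738 ± 31.9 in DON and 656 ± 24.6 in Control. In DON the SD of Tgfb1 spans its difference from Smad3. Tgfbr1, at 275 ± 65.5 in DON and 339 ± 12.8 in Control, and Skil, at 114 ± 2.56 in DON and 137 ± 17.5 in Control, were the lowest. With the longest transcript in place of merged exons, Tgfb1 took the third place in DON and the order there was otherwise the same. In Control it moved farther, to 1888 normalized counts per kilobase, between Tgfbr2 (2092) and Smad4 (1534). The rank of Tgfb1 thus depends on the length used. Smad2 was not ranked.

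The rest of the pathway was described with 63 further genes grouped by role. This list was chosen with earlier results of these data known, so its shares are no independent comparison with all genes. Of the 58 that could be tested, 1 rose and 4 fell in DON, against 2.3% of all genes that rose and 4.15% that fell, and 53 did not pass. The median log2 difference of the 58 was -0.10, against 0.00032 for all genes tested. The genes that fell were Tgfb3, Thbs1, Dab2 and Ep300, and Usp11 rose. The changes were therefore in a second ligand, an activator of latent ligand, an adaptor, a coactivator and a deubiquitinase, with none among co-receptors (3 tested), other receptors of the family (8), other SMADs (3) or the non-SMAD branch (6) in limma.

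Tgfb3, which encodes a second TGF-β ligand, had 26.8, 43.7 and 24.3 normalized counts in DON libraries 1 to 3, against 152, 224 and 120 in Control libraries 1 to 3. These counts were low, above all in DON, and all DON libraries were below all Control libraries. The log2 difference was -2.35 (SE 0.33, limma adjusted p = 0.00914). Thbs1, which encodes thrombospondin 1, an activator of latent TGF-β, had 685, 708 and 661 normalized counts in DON libraries 1 to 3, against 1884, 1839 and 1798 in Control libraries 1 to 3. Its groups were far apart, with a log2 difference of -1.43 (SE 0.08, limma adjusted p = 0.00022). Dab2, an endocytic adaptor that binds TGF-β receptors, had 189, 185 and 178 normalized counts in DON libraries 1 to 3, against 406, 586 and 491 in Control libraries 1 to 3 (log2 difference -1.40, SE 0.16, limma adjusted p = 0.00405).

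Ep300 encodes the acetyltransferase p300, a coactivator of SMAD complexes. It averaged 12103 ± 109 normalized counts in DON and 14630 ± 481 in Control (log2 difference -0.27, limma adjusted p = 0.027). Usp11, a deubiquitinase that acts on the type I receptor, averaged 2891 ± 220 in DON and 2231 ± 92.9 in Control (log2 difference 0.37, limma adjusted p = 0.0404). Both calls were lost when DON library 2, DON library 3 or any 1 Control library was left out, with adjusted p of 0.0845 to 0.109 for Ep300 and 0.0644 to 0.139 for Usp11. They were also lost without DON libraries 2 and 3 together (0.106 for Ep300 and 0.0705 for Usp11), with the replicate block (0.102 and 0.119) and without a variance trend (0.125 and 0.114), and that of Usp11 with no filter (0.0577). The calls of Tgfb3, Thbs1 and Dab2 held under each of the alternatives run, though not all by a wide margin. That of Tgfb3 held narrowly without Control library 1 (limma adjusted p = 0.0476) or Control library 2 (limma adjusted p = 0.0487). That of Dab2 held narrowly with DON library 1 as the only DON library.

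**Figure D4:**
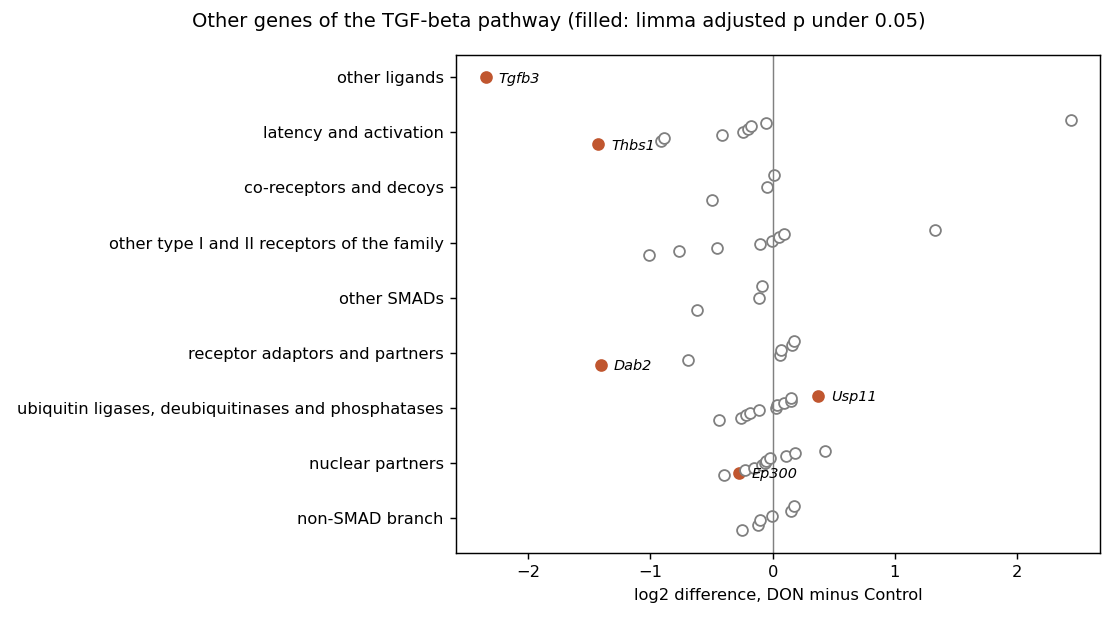
Log2 difference, DON minus Control, of 58 further pathway genes by role; filled points passed limma at an adjusted p under 0.05 and are named. Tgfb3 (-2.35), Thbs1 (-1.43) and Dab2 (-1.40) lie farthest to the left among the genes that passed, and Usp11 (0.37) is the only one that passed to the right of 0.

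Markers of other cells did not all fall as Tgfb3, Thbs1 and Dab2 did. Macrophage markers summed higher in DON libraries (11347 to 12357 normalized counts) than in Control libraries (9053 to 9202), and 4 of 8 rose. The 7 neutrophil markers summed to 1807 to 2297 normalized counts in DON libraries and 10699 to 11406 in Control libraries, and 7 of 7 fell. The 6 B cell markers summed to 45740 to 52146 in DON libraries and 63649 to 66665 in Control libraries, and 6 of 6 fell. Pf4, a platelet chemokine, had 9.56, 26.8 and 40.5 normalized counts in DON libraries 1 to 3, against 119, 81.2 and 136 in Control libraries 1 to 3. Stromal transcripts were low, with 114 to 137 normalized counts in sum over 6 markers in DON libraries, 84 to 99 in Control libraries, and Dcn at 0 in all of them. Only 2 of the 6 passed the filter, and Pdgfrb held most of the sum (100 ± 7.13 in DON and 71.0 ± 12.3 in Control). The part of these cells in the changes of Tgfb3, Thbs1 and Dab2 was not tested.

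Genes known to respond to TGF-β were examined next, with a list that was also chosen with earlier results of these data known. The list was not split by the direction in which TGF-β moves each gene, so its count and median are no directional readout. Pmepa1, Ldlrad4, Tgif1 and Smad6 were also among the 58 further pathway genes. Of 23 tested, 0 rose and 1 fell in limma, against 2.3% and 4.15% of all genes, with a median log2 difference of -0.05. The gene that fell was Tgfbi, which encodes an extracellular matrix protein induced by TGF-β and made by monocytes among other cells. It had 371, 439 and 316 normalized counts in DON libraries 1 to 3, against 923, 1016 and 917 in Control libraries 1 to 3 (log2 difference -1.35, SE 0.14, limma adjusted p = 0.00261), and the groups were far apart.

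Pmepa1, a target whose product limits SMAD activation, had 1146, 1110 and 1255 normalized counts in DON libraries 1 to 3, against 862, 737 and 1037 in Control libraries 1 to 3. The groups did not overlap, with a log2 difference of 0.43 (SE 0.13, limma adjusted p = 0.1). Itgae, the αE integrin CD103 that TGF-β induces in T cells, averaged 1865 ± 43.7 in DON and 1650 ± 148 in Control (log2 difference 0.18, limma adjusted p = 0.246). Foxp3, which TGF-β can induce in CD4 T cells, had the means given above (log2 difference -0.05, 95% interval -0.34 to 0.24, limma adjusted p = 0.833).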

How the data were processed

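Per the file headers, the authors deposited 1 column of normalized counts per library, treated here as a signal per gene. The submitters' processing notes list StringTie, HISAT2, mm10 and mm8, with no role for any of them; the counting method and strand setting are not given in the sources used here. All values above 0 (100% in each library, tolerance 0.001) were whole multiples of 1 step, and dividing by it gave recovered units. Whether a unit is a read is unknown, since values of exactly 4 units were in excess (854 to 903 genes in a library, and 382 to 446 at 3 units). The 37 mitochondrial genes were listed at 0. For 49035 of 52550 genes the position equalled that in GENCODE M21 (GRCm38).

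The main test was limma 3.58.1 in R 4.3.3 (two-sided; the prior variance follows a trend with level). It used log2(normalized count + 1) of genes with at least 10 normalized counts in at least 3 of 6 libraries; fold changes on that scale understate those of low genes. Rows sharing a symbol were summed, and p-values were adjusted over all 17185 genes by Benjamini-Hochberg with a threshold of 0.05. edgeR 4.0.16 and DESeq2 1.42.0 were run on recovered units as alternatives, with other pseudocounts, filters and scalings, no variance trend, a replicate block, a GC correction and libraries left out. The GC correction subtracted a robust loess curve (span 0.5) of deviations on the GC content of the longest transcript, used for 87.8% of tested genes. The fit was tested on simulated data. Genes and lists were chosen with earlier results of these data known. Named were the 9 genes, the up to 5 largest passing changes per direction in each list, Itgae, Pmepa1, Foxp3 and Tgfb3, the 5 profiles nearest to that of the member with the smallest adjusted p, and markers.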

Additional observations from a re-analysis of the deposited data

How the results depend on the processing

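The number of the 9 genes that passed was 0 under most alternatives and 1 in 3 of them: after the GC correction (1, Tgfb1), with DON library 1 as the only DON library (1, Tgfb1), and with DON library 1 left out (1, Tgfbr1). Leaving out 1 library gave 0 to 1. Over all genes the count of 1108 became 703 with no filter, 363 without a variance trend, 288 with the replicate block, 358 without DON libraries 2 and 3 and 2138 in DESeq2, and it was 260 to 3237 when 1 library was left out. Of the further pathway genes, 5 passed in the main test, against 3 without a variance trend, 3 with the replicate block, 3 without DON libraries 2 and 3, 8 in DESeq2, 9 of 47 after the GC correction (where 1212 of 15088 of all genes passed), and 3 to 13 when 1 library was left out.

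Some differences changed sign, and no gene among these passed in the fit concerned: Tgfbr1 without DON libraries 2 and 3 (0.047), Tgfbr2 after quantile normalization (-0.0045), after the GC correction (-0.050) and without DON libraries 2 and 3 (-0.018), Smad4 after quantile normalization (0.013), and Skil after the GC correction (0.012). With 1 library left out, the difference was -0.0075 to 0.0157 for Tgfbr2, -0.0398 to 0.0225 for Smad4 and -0.121 to 0.0798 for Foxp3, with the other sign without DON library 2, Control library 1 and DON library 1 in that order. Among the ratios, Smad2 to Smad3 was 0.0174 without Control library 2, and Smad7 to the sum of Smad2 and Smad3 was -0.0767 without Control library 1 and -0.00738 without DON library 2. The cause was not tested. For the 9 genes, 141 of 152 comparisons with alternatives kept direction and side of the threshold. Since none of the 9 passed in the main test, this count mostly reflects genes that stayed uncalled and does not show stable sizes. It includes Tgfbr1, which went from -0.33 to -0.06 after the GC correction, and Ski, which went from 0.47 to 0.07 without Control library 3.

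Same-numbered libraries did not deviate together (correlations of -0.0559, -0.0545 and -0.0520), so the replicate block rests on a number only, and it called 0 of the 9 genes. These are RNA levels: neither release of the latent ligand nor SMAD phosphorylation was measured here.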
